A study of Mus musculus with 6 samples.

Results

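The genes described here were the 7 aquaporin water channel genes Aqp1, Aqp3, Aqp4, Aqp7, Aqp8, Aqp9, and Aqp11, taken by mouse symbol from the 27546 genes of the deposited table. Aquaporins are membrane channels that let water cross cells along an osmotic gradient, and the aquaglyceroporins among them also pass glycerol. In the colon the surface epithelium takes up salt, water follows it, and loss of this uptake is part of the diarrhea of colitis. Aqp8 is known as an abundant aquaporin of colonic surface epithelium, Aqp4 as a basolateral channel of epithelium that is also found in glia and skeletal muscle, and Aqp1 as a channel of endothelium and red cells.

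The tissue was distal colon of 3 Gm31629-/- mice and 3 littermate WT mice, C57BL/6 by the labels and C57BL/6J by the methods, 8 weeks old, with 1 RNA-Seq library per mouse. Gm31629 is a long noncoding RNA, and its sequence was deleted in the Gm31629-/- line. Both groups drank 3% DSS (dextran sulfate sodium, which injures the colonic epithelium) over 7 days and were killed on day 8. No untreated mice entered the comparison. The methods speak of total RNAs pooled from 3 mice per group, whereas the table holds a column per mouse, and p-values measure the spread between these 6 libraries.

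Values were FPKM, fragments scaled to gene length and to the mapped fragments of the library. The libraries held 18006000 to 18795100 mapped fragments, recovered from the size of 1 fragment. Gm31629 itself was not analysed here, so the genotype labels were not checked against its level. The methods state male mice. Gm31629-/- mouse 1 had transcripts of 4 Y-linked genes and almost no Xist, whereas the other 5 libraries had Xist and 0 FPKM for the 4 Y-linked genes. Epithelial markers were present in all 6 libraries, at a summed 7708 to 14010 FPKM over 15 genes. Smooth muscle markers summed to 22.95 to 39.2 FPKM over 12 genes in WT mice and to 1173 to 1804 FPKM in Gm31629-/- mice. Which layers of the wall each piece held was not tested, so tissue makeup and genotype cannot be told apart. In such bulk tissue, fewer cells of a type and less RNA per cell cannot be told apart.

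Of the 7 aquaporin genes, 4 were tested (Aqp1, Aqp4, Aqp8, and Aqp11), and 3 (Aqp3, Aqp7, and Aqp9) had a mean FPKM under the filter of 0.5. Aqp11 was called lower in Gm31629-/- mice and no aquaporin gene was called higher. A call needed both a log2 fold change beyond −1 or 1 and, from limma, an adjusted p below 0.05. With limma's unadjusted p under 0.05 in its place, or with voom on recovered fragments, 1 gene (Aqp8) was called higher. By the same thresholds 4.64% of the 14657 tested genes were called lower and 18.4% were called higher. An adjusted p below 0.05 at any fold was reached by Aqp11 alone of the 4, and by 43.5% of tested genes. Aqp11 was also the only one of the 4 whose groups did not overlap, against 57.8% of tested genes. The median of tested genes stood at 0.15 (log2 fold change) on the deposited scale, at −0.05 once libraries were scaled by median ratios, and at 0.78 once they were scaled to the 15 epithelial markers.

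Aqp8 was by far the most abundant aquaporin in every mouse. It lies on chromosome 7 (123462291 to 123468004 of GRCm38, plus strand, ENSMUSG00000030762), and its channel passes water, ammonia, and hydrogen peroxide. Its level was 307, 239.5, and 248 FPKM in WT mice 1 to 3 and 609.7, 302, and 823 FPKM in Gm31629-/- mice 1 to 3. Gm31629-/- mice 1 and 3 were above every WT mouse, and Gm31629-/- mouse 2 lay just under WT mouse 1, so the groups overlapped. The means were 265 ± 36.8 in WT mice and 578 ± 262 in Gm31629-/- mice (FPKM, SD, n = 3 each). The log2 fold change was 1.02 (standard error 0.36, 95% interval 0.18 to 1.85), and the limma adjusted p of 0.0536 missed the threshold. Without Gm31629-/- mouse 2, the log2 fold change of Aqp8 was 1.42 and passed (limma adjusted p = 0.00315). Without any other single mouse it was 0.70 to 1.13 and did not pass (limma adjusted p = 0.0924 to 0.15). Scaled by the median ratio it was 0.75 and did not pass (limma adjusted p = 0.149). Of the 15 epithelial markers, 6 were called lower, against 4.64% of all tested genes, and 9 were not called. Their log2 fold changes ran from −3.13 for Cdx2 to 0.005 for Epcam. Relative to the geometric mean of these markers, the log2 fold change of Aqp8 was 1.84 (limma adjusted p = 0.00131). That value is to be read against the median of 0.78 at that scaling, and it depends on which markers are used. Each Aqp8 value rested on 6817 to 23911 fragments, so counting error was small beside the spread between mice.

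**Figure D1:**
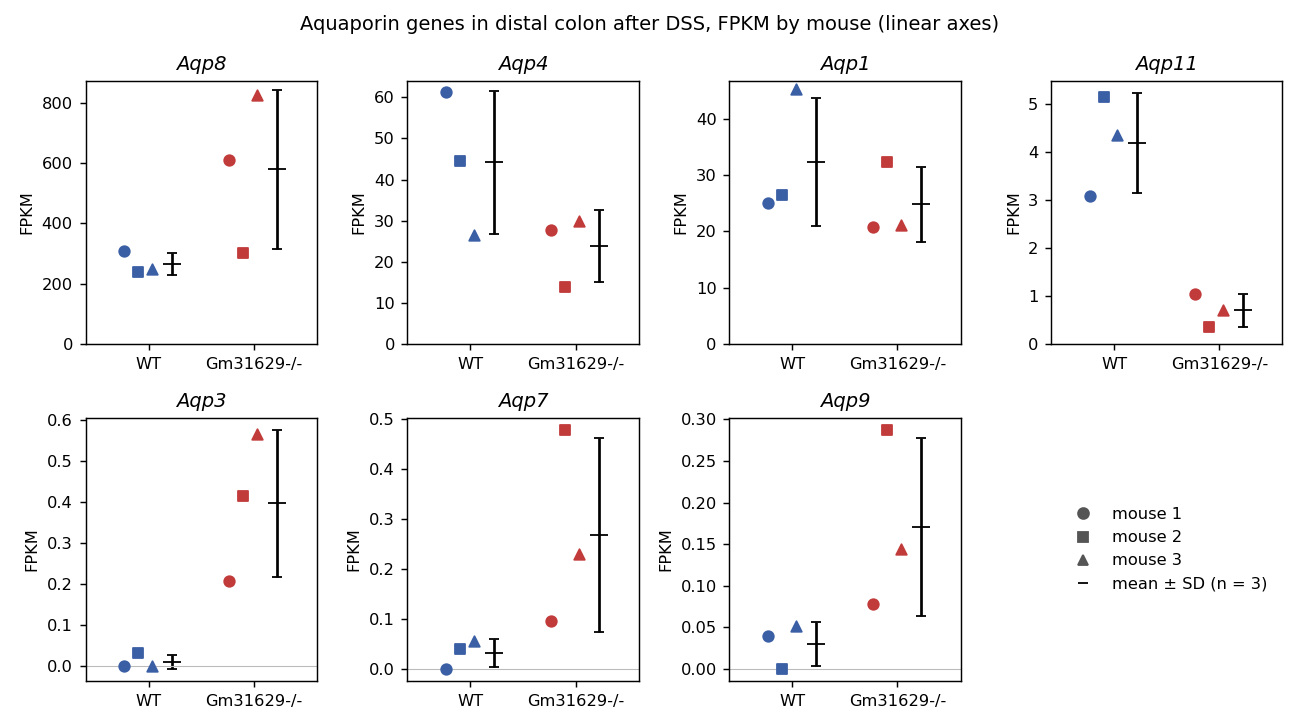
FPKM of the 7 aquaporin genes in each mouse, on linear axes that differ between panels, with WT mice in blue and Gm31629-/- mice in red; symbols mark mice 1 to 3 and bars the mean ± SD (n = 3). Aqp11 was lower in all 3 Gm31629-/- mice, Aqp1, Aqp4, and Aqp8 overlapped between the groups, and Aqp3, Aqp7, and Aqp9 stayed under 0.6 FPKM in every mouse.

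Aqp11 fell. This gene encodes an aquaporin of intracellular membranes, among them the endoplasmic reticulum. It lies on chromosome 7 (97724006 to 97738289, minus strand, ENSMUSG00000042797). Its level was 3.08, 5.14, and 4.34 FPKM in WT mice 1 to 3 and 1.05, 0.357, and 0.711 FPKM in Gm31629-/- mice 1 to 3. The highest Gm31629-/- mouse was well below the lowest WT mouse. Mean FPKM was 4.19 ± 1.04 in WT mice and 0.706 ± 0.347 in Gm31629-/- mice (SD, n = 3 each). The log2 fold change was −1.60 (standard error 0.23, 95% interval −2.15 to −1.06, limma adjusted p = 0.00209). The pseudocount of 1 understates a change at this level. On the fragments themselves, 536, 872, and 769 for the WT libraries and 182, 62, and 123 for the Gm31629-/- libraries, limma's voom gave a log2 fold change of −2.66 (adjusted p = 0.00202). Aqp11 was called lower without each mouse in turn, in 6 of 6 fits.

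The promoters of Aqp8 and Aqp11 are shown because these were the most abundant aquaporin and the one that fell. RefSeq windows of GRCm38.p6 were found for 6 of the 7 genes and cover the 250 bases before the annotated start, 5′ to 3′ on the strand of the gene, with CG dinucleotides in capitals. The Aqp8 window is chr7:123462044-123462293 (plus strand) and the Aqp11 window is chr7:97738248-97738497 (minus strand).
Aqp8: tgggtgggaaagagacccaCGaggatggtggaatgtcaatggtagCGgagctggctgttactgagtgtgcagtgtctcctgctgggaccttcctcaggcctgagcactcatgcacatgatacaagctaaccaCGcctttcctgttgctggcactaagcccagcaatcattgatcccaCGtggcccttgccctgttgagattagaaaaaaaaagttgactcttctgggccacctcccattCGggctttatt
Aqp11: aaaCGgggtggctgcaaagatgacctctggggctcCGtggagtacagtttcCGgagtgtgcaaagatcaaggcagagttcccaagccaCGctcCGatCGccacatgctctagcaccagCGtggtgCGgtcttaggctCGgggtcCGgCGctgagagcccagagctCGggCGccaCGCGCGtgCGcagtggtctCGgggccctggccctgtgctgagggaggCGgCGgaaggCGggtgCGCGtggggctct
The Aqp8 window holds 5 CG dinucleotides and 52.4% G and C, and the Aqp11 window holds 23 and 67.2%. Over 32851 windows of the same length the median was 6, and 86.7% had fewer than Aqp11. The letters TTTAT, the core of the site read by the intestinal factors Cdx1 and Cdx2, were searched on both strands. They occur in the Aqp8 window from base −6 to −2 before the start, and in 37.3% of all windows. The E-box letters CACGTG occur in the Aqp8 window from −75 to −70 and in 6.0% of all windows. The TATA box letters TATAAA, which overlap those of TTTAT on the other strand, occur in 12.4% of all windows. The GC box letters GGGCGG occur in 32.7% of them. The Hnf4 letters CAAAGTCCA occur in 0.4% of them and in no window of the 6 genes. The Aqp11 window held none of these 5 motifs. Cdx1 and Cdx2 themselves were called lower (log2 fold changes −1.19 and −3.13, limma adjusted p = 0.00502 and 0.00847). These matches describe letters only, and no binding was measured.

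Aqp4 had its highest values in WT mice, with overlap. The gene is on chromosome 18 (15389496 to 15410982, minus strand, ENSMUSG00000024411), and an antisense gene, AC133525.2, overlaps it, so that reads of the pair cannot be told apart without strand. Its FPKM was 61.3, 44.6, and 26.5 in WT mice 1 to 3 and 27.6, 13.8, and 30.0 in Gm31629-/- mice 1 to 3. WT mouse 3 lay below Gm31629-/- mice 1 and 3. The log2 fold change was −0.86 (standard error 0.38, 95% interval −1.74 to 0.03, limma adjusted p = 0.105), an interval that spans 0. After rescaling to the epithelial markers it was −0.06, where the median of all genes was 0.78.

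Aqp1 did not pass either. It lies on chromosome 6 (55336432 to 55348555, plus strand, ENSMUSG00000004655) and encodes the water channel of red cells and of much endothelium. WT mice 1 to 3 had 25.0, 26.5, and 45.3 FPKM and Gm31629-/- mice 1 to 3 had 20.8, 32.4, and 21.2 FPKM. The ranges overlapped, and WT mouse 3 was the highest of the 6 libraries. The log2 fold change was −0.35 (standard error 0.27, 95% interval −0.99 to 0.30, limma adjusted p = 0.335). It was −0.08 without WT mouse 3. After rescaling to the epithelial markers it turned to 0.45, where the median of all tested genes was 0.78.

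**Figure D2:**
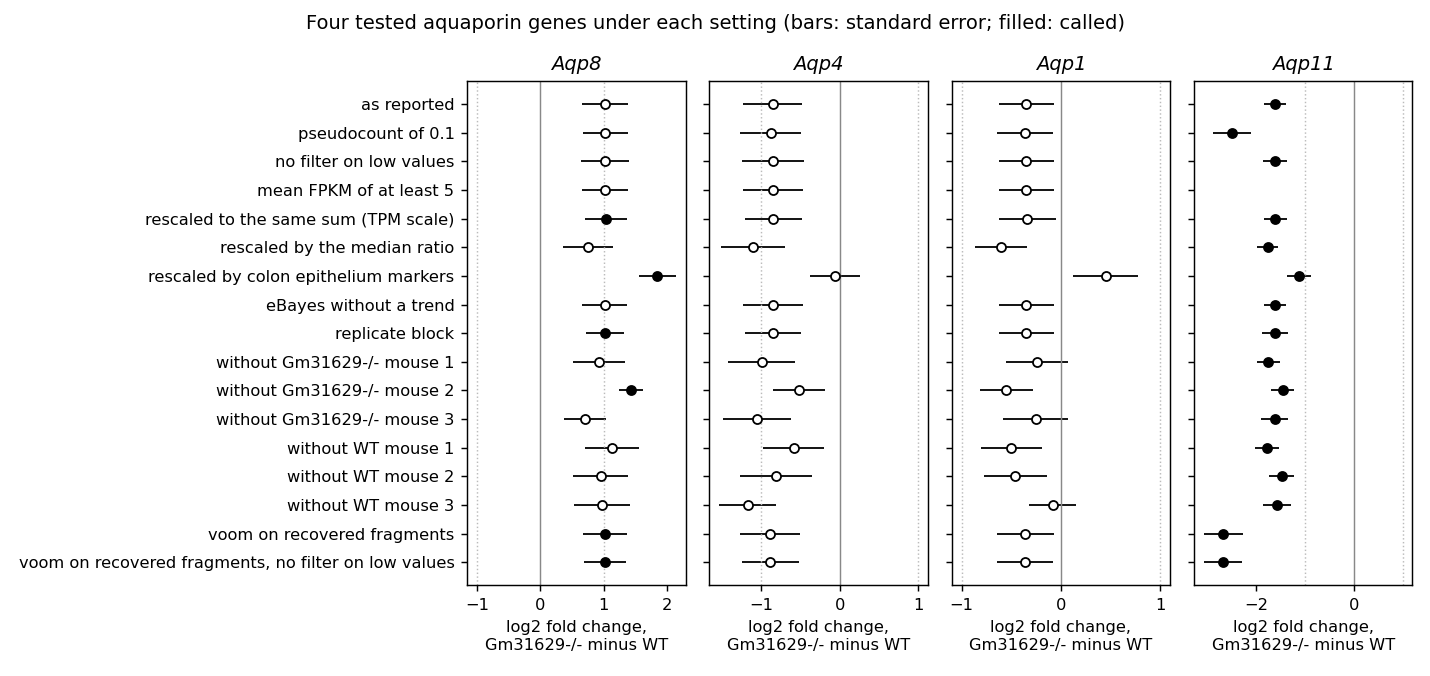
Log2 fold change (Gm31629-/- minus WT, x axis) of Aqp8, Aqp4, Aqp1, and Aqp11 under each setting (y axis), with standard errors as bars, filled points where the gene was called, and dotted lines at −1 and 1. Aqp11 stayed lower and called in every setting that tested it, and Aqp8 crossed the threshold in some settings. Aqp1 changed sign when libraries were rescaled to epithelial markers, where the median of all tested genes was 0.78.

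The remaining 3 genes encode aquaglyceroporins and were close to the limit of detection. Aqp3 is known from the basolateral membrane of epithelia and from stratified epithelium, Aqp7 from adipocytes, where it releases glycerol, and Aqp9 from liver and leukocytes. Aqp3 (chromosome 4, 41092722 to 41098183, minus strand) had 0, 1, and 0 fragments in WT mice 1 to 3 and 7, 14, and 19 fragments in Gm31629-/- mice 1 to 3. In FPKM the Gm31629-/- mice had 0.208, 0.415, and 0.566 for Aqp3, whereas a count of 0 in WT mouse 1 allows up to 3 fragments, or 0.0887 FPKM. Over the pooled fragments, the rate of Aqp3 in Gm31629-/- mice was 40.05 times that in WT mice, with an exact 95% interval of 6.79 to 1621 that covers counting error only.

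Aqp7, which lies on the same stretch of chromosome 4 as Aqp3 (41033074 to 41048139, minus strand), had 0, 2, and 3 fragments in the WT libraries and 5, 25, and 12 in those of Gm31629-/- mice. Aqp9 (chromosome 9, 71110659 to 71168682, minus strand) had 3, 0, and 4 in the WT libraries and 6, 22, and 11 in those of Gm31629-/- mice, and 2 genes on the opposite strand overlap it, Gm47268 and Gm32511. The pooled rates were 8.41 times (3.33 to 27.2) and 5.58 times (2.47 to 14.8) those of WT mice. All 3 genes were higher in each Gm31629-/- mouse than in any WT mouse, as were 36.3% of the genes that passed the filter. These 3 did not pass it, and the share among genes under the filter was not counted. More genes of any kind were above 0 FPKM in Gm31629-/- libraries (22456 to 23600) than in WT libraries (19938 to 20118), at similar depth. For each of the 3, a two-sided exact permutation test gave p = 0.1, which is the smallest that 3 mice against 3 can give. With voom on the fragments and no filter on low values, a setting chosen after the data were seen, Aqp3 and Aqp7 passed (log2 fold changes 4.15 and 2.88, adjusted p = 0.00185 and 0.0346) and Aqp9 had 2.58 (adjusted p = 0.0530). In that setting 22.3% of 27488 genes were called higher, and the median over all genes was 0.53.

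FPKM is per length and allows the channels to be ranked within a mouse. In both groups Aqp8 stood first without overlap. Aqp4 and Aqp1 followed, and their order differed between mice. The ratio of Aqp4 to Aqp1 was 2.45, 1.68, and 0.585 in WT mice 1 to 3. In Gm31629-/- mice 1 to 3 this ratio was 1.33, 0.427, and 1.42. Aqp11 came next and was above the 3 aquaglyceroporins in WT mice. In Gm31629-/- mice 1 and 3 Aqp11 (1.05 and 0.711 FPKM) was above Aqp3 (0.208 and 0.566 FPKM) and Aqp7 (0.0961 and 0.231 FPKM). In Gm31629-/- mouse 2 Aqp11 (0.357 FPKM) was below Aqp3 (0.415 FPKM) and Aqp7 (0.479 FPKM).

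The makeup of the aquaporin pool can be read without any scaling between libraries. Of 12 mouse aquaporin genes looked for, 10 were listed, and their FPKM summed to 397, 316, and 325 in WT mice 1 to 3 and to 659.5, 350.3, and 877 in Gm31629-/- mice 1 to 3. Aqp8 made up 75.8% to 77.4% of this sum in WT mice and 86.2% to 93.8% in Gm31629-/- mice, and the ranges did not overlap. A larger share need not mean more Aqp8. In Gm31629-/- mouse 2, Aqp8 (302 FPKM) was not above WT mouse 1 (307 FPKM). Aqp4 was lower there (13.8 against 61.3 FPKM), and Aqp1 was higher (32.4 against 25.0 FPKM). The share of Aqp4 was 8.17% to 15.4% in WT mice and 3.42% to 4.19% in Gm31629-/- mice. The ratio of Aqp8 to Aqp4 was 5.01, 5.37, and 9.35 in the WT libraries and 22.1, 21.8, and 27.4 in the Gm31629-/- libraries. By this ratio, chosen after its values were seen, Gm31629-/- mouse 2 did not stand apart from mice 1 and 3. The two-sided exact permutation p was 0.1, again the smallest possible. By the ratio of Aqp8 to Aqp1 it did stand apart, with 29.4, 9.31, and 38.9 in Gm31629-/- mice 1 to 3 against 12.3, 9.03, and 5.47 for WT mice 1 to 3, and the groups overlapped (two-sided exact permutation p = 0.2).

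Of the aquaporin genes outside the 7, Aqp5 had 0, 0, and 0.0319 FPKM in WT mice and 0, 0.683, and 0.392 FPKM in Gm31629-/- mice. Aqp12 and Mip, the lens aquaporin, were at 0 in several mice of both groups and at most at 0.851 and 0.0259 FPKM. Aqp2 and Aqp6 were looked for and were not listed.

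Genes whose values across the 6 mice were most like those of each tested aquaporin were found by the root mean square difference of log2(FPKM + 1), centred on each gene's mean, among genes averaging 5 FPKM or more. Both genotype and mouse enter this measure, over only 6 libraries. The nearest gene to Aqp8 of 7242 was Scnn1a, the alpha subunit of the epithelial sodium channel ENaC, with a difference of 0.135 on the log2 scale. Scnn1a had 35.5, 26.1, and 24.4 FPKM in WT mice 1 to 3 and 79.2, 37.3, and 84.7 FPKM in Gm31629-/- mice 1 to 3. As with Aqp8, Gm31629-/- mouse 2 was the lowest of its group. Cyp2d22, a cytochrome P450, and Tmprss2, a serine protease of the cell surface, followed with 0.189 and 0.212.

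The genes nearest to Aqp11 were Gss, which encodes glutathione synthetase, with a difference of 0.163, Igf2bp2, an RNA-binding protein, with 0.166, and Gpd1l, a glycerol-3-phosphate dehydrogenase, with 0.167. Gss had 22.9 to 32.4 FPKM in WT mice and 8.20 to 10.3 FPKM in Gm31629-/- mice. Aqp11 averaged 2.45 FPKM, under the 5 FPKM asked of the genes compared, so the pseudocount of 1 shrank its change more than theirs. Mean FPKM was 4.19 in WT mice and 0.706 in Gm31629-/- mice for Aqp11, and 29.7 and 11.5 for Gpd1l. The likeness therefore holds on the log2(FPKM + 1) scale, and in FPKM Aqp11 fell by the larger fold. For Aqp1 the nearest were Hsf1 (0.160), Akip1 (0.175), and Tcf3 (0.180). For Aqp4 they were mt-Co1, a mitochondrially encoded subunit of cytochrome c oxidase (0.254), Rasd1 (0.257), and Gm13340 (0.266), all farther than the nearest genes of the other channels.

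**Figure D3:**
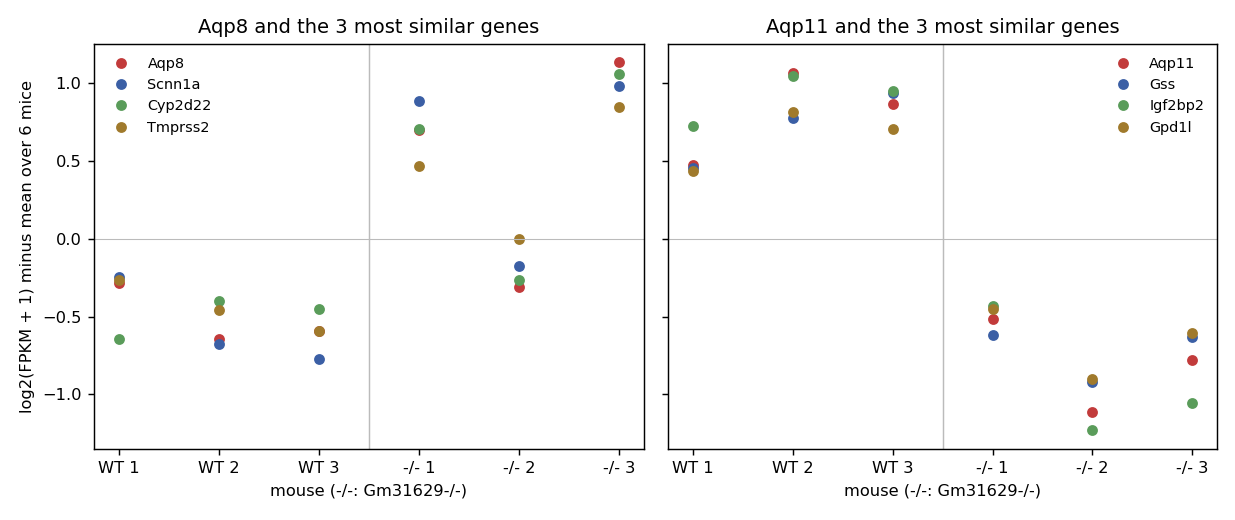
Log2(FPKM + 1) minus the gene's mean over the 6 mice (y axis) in each mouse (x axis) for Aqp8 and Aqp11 and the 3 genes most similar to each. Scnn1a lay close to Aqp8 in every mouse, with Gm31629-/- mouse 2 low in both, and the genes beside Aqp11 were lower in all 3 Gm31629-/- mice.

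Water in the colon follows ions, and 22 genes of ion transport and its control were set beside the channels. Of these, 4 were called higher, 6 were called lower, and 12 were not called, with a median log2 fold change of −0.32 against 0.15 over all tested genes. The share called higher was near the 18.4% of all tested genes, and 4.64% of those were called lower. The largest rise was in Atp12a, the colonic proton-potassium pump (2.30 to 3.54 FPKM in WT mice, 153.5 to 295 FPKM in Gm31629-/- mice, log2 fold change 5.90, limma adjusted p = 9.1e-05). Scnn1g, the gamma subunit of ENaC, went from 0.160 to 0.186 FPKM in WT mice to 4.51 to 9.52 FPKM in Gm31629-/- mice (log2 fold change 2.70, limma adjusted p = 0.000449), and Scnn1a and Scnn1b were also called higher (1.13 and 1.15, limma adjusted p = 0.0275 and 0.0396). The largest falls were in Kcnq1 and Kcne3, the subunits of a basolateral potassium channel that sustains chloride secretion, with log2 fold changes of −3.12 and −1.98 (limma adjusted p = 0.00043 and 0.00264).

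Aquaglyceroporins move glycerol, and 12 genes of glycerol release and use were examined for that reason. Lipe, the hormone-sensitive lipase, and Gk, glycerol kinase, were called higher (log2 fold changes 1.40 and 1.19, limma adjusted p = 0.0153 and 0.00948). Gpd1l and Gpd1, both glycerol-3-phosphate dehydrogenases, were called lower (−1.31 and −1.37, limma adjusted p = 0.00171 and 0.00492). The other 8 were not called, and the median of the list was −0.24 against 0.15 over all tested genes. The 2 of 12 called higher were again near the 18.4% of all tested genes, of which 4.64% were called lower. Of 9 genes for partners of aquaporin 4, most of them in the dystrophin complex that anchors it, 7 were tested, with a median log2 fold change of 0.92, and 3 were called higher and 1 lower, against the same shares of all tested genes. The syntrophin gene Sntb2, the cation channel gene Trpv4, and the potassium channel gene Kcnj10 were called higher (1.48, 1.33, and 1.11), and Dag1, which encodes dystroglycan, was called lower (−1.04, limma adjusted p = 0.00168). Utrn, with the smallest change after Dag1, was not called (0.08, limma adjusted p = 0.795).

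Markers of the cell types known for each channel were set beside it, and their part in the aquaporin values was not tested. Called genes are to be read against the 18.4% called higher and 4.64% called lower among all tested genes. For Aqp1, all 12 endothelial markers were called higher (median log2 fold change 2.37) and summed to 3.31 to 9.10 FPKM in WT mice and to 73.1 to 135.1 FPKM in Gm31629-/- mice. Aqp1 itself was at 25.0 to 45.3 FPKM in WT mice and at 20.8 to 32.4 FPKM in Gm31629-/- mice, and which cells its transcripts came from was not tested. Erythrocyte markers summed to 38.2 to 141 FPKM in WT mice and 144 to 3007 FPKM in Gm31629-/- mice, highest in mouse 1, and 3 of 5 tested were called higher. The 8 mesothelial markers summed to 2.51 to 3.02 FPKM in WT mice and 3.82 to 45.6 FPKM in Gm31629-/- mice, with Wt1, Gpm6a, and Bnc1 at 0 in all WT mice and 3 of 4 tested called higher.

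For Aqp4, the 8 enteric glia markers summed to 82.8 to 124.5 FPKM in WT mice and 78.2 to 97.6 FPKM in Gm31629-/- mice, and in WT mice most of that was Erbb3, which epithelium also expresses. Of 7 glial markers tested, 5 were called higher. Gfap had 0.0252 to 0.0527 FPKM in WT mice and 5.63 to 18.9 FPKM in Gm31629-/- mice, and Sox2 was at 0 in all WT mice. Of the 10 skeletal muscle markers 8 were listed, Myh1 and Myh2 were at 0 in all WT mice, Mb was at 0 in all Gm31629-/- mice, and 1 of 3 tested was called higher.

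For Aqp8, none of the 15 epithelial markers was called higher and 6 were called lower, with a median log2 fold change of −0.64. The 12 markers of absorptive surface colonocytes summed to 7639 to 9300 FPKM in WT mice and 2817 to 6625 FPKM in Gm31629-/- mice, lowest in Gm31629-/- mouse 2. Car1 was the largest part of the WT sums, with 3886 to 5459 FPKM in WT mice and 509 to 2165 FPKM in Gm31629-/- mice. Slc20a1 was called higher, Car1 and Guca2b were called lower, and 9 were not called, with a list median of −0.37. Among those not called, Car4 and Slc26a3 were above every WT mouse in Gm31629-/- mice 1 and 3 and below every WT mouse in mouse 2. Of the 12 markers, 2 lay above all WT mice in every Gm31629-/- mouse and 3 lay below, against 36.3% and 21.5% of all tested genes. Of 10 goblet cell markers, 4 were called higher (Zg16, Clca1, Tff3, and Fcgbp) and 2 lower (Agr2 and Retnlb), with a list median of −0.395. Their sum was 5238 to 7041 FPKM in WT mice and 12690 to 18130 FPKM in Gm31629-/- mice. In each Gm31629-/- mouse the largest values in this sum were those of Zg16, Clca1, and Tff3, so the sum does not stand for the typical marker.

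For Aqp7, 7 of the 9 adipocyte markers tested were called higher, and the 10 listed summed to 92.0 to 145.3 FPKM in WT mice and 215 to 597 FPKM in Gm31629-/- mice. Gm31629-/- mouse 2 was highest in Adipoq, with 4.01, 38.3, and 12.8 FPKM in mice 1 to 3, and in Aqp7. That match was not particular to adipocytes. The same mouse was the highest of its group in Aqp9 (22 fragments) and in the fibroblast marker Col1a1 (100.6 FPKM). For Aqp9, 9 of 10 neutrophil markers were called higher and Cd177 was called lower, with sums of 77.4 to 105 FPKM in WT mice and 123 to 259 FPKM in Gm31629-/- mice and Camp at 0 in all WT mice. All 10 macrophage markers were called higher, with sums of 58.2 to 73.3 and 586 to 1291 FPKM. For Aqp3, the 9 stratified squamous markers listed summed to 0.917 to 1.04 FPKM in WT mice and 1.96 to 5.03 FPKM in Gm31629-/- mice, with Krt5, Trp63, and Dsg3 at 0 in all WT mice, Krt4 at 0 in all Gm31629-/- mice, and neither of the 2 tested called. Of the muscle layer and stroma, 10 of 11 smooth muscle markers and all 10 fibroblast markers were called higher, the latter summing to 22.04 to 41.5 FPKM in WT mice and 228 to 636 FPKM in Gm31629-/- mice.

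**Figure D4:**
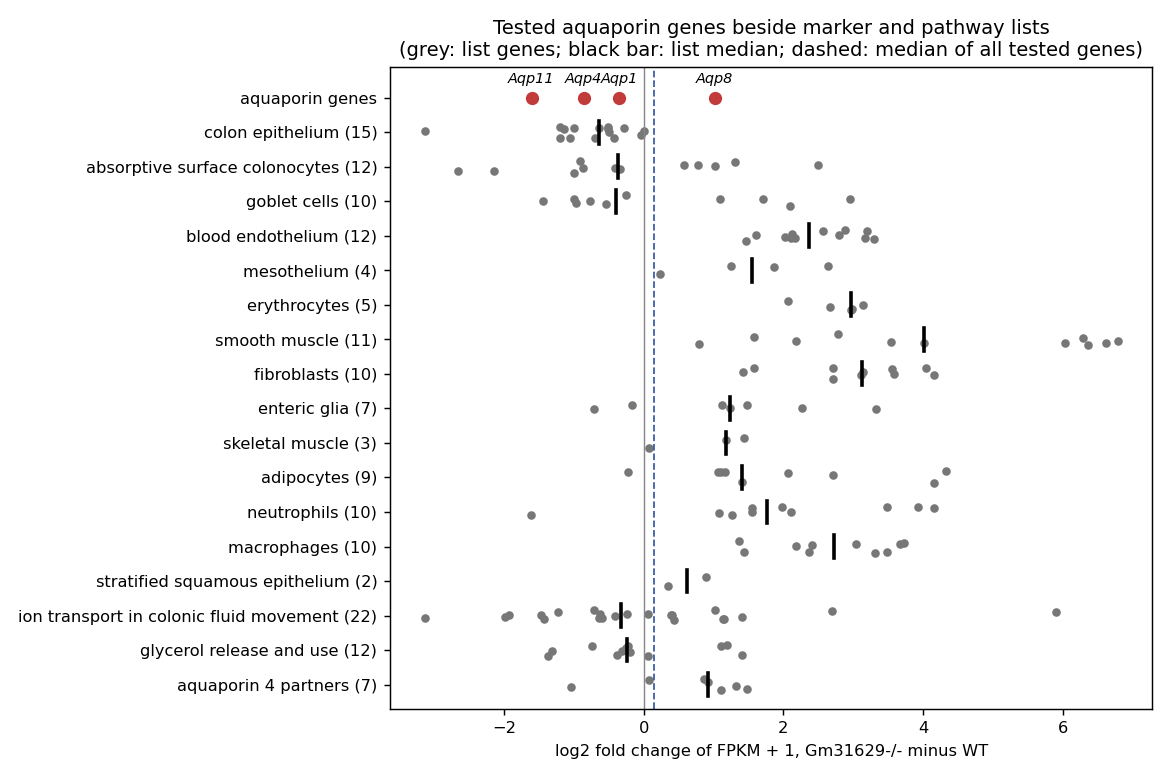
Log2 fold change of FPKM + 1 (Gm31629-/- minus WT, x axis) of the 4 tested aquaporin genes in red and of the tested genes of each reported marker or pathway list in grey (y axis, number of genes in brackets), with the list median as a black bar and the median of all tested genes (0.15) dashed. Stromal, muscle, and immune lists had medians to the right. The colon epithelium list lay left of 0 apart from Epcam (0.005). The surface colonocyte and goblet cell lists straddled 0, with medians left of it. The stratified squamous list lay right of 0. Aqp8 lay right of the medians of these epithelial lists.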

How the data were processed

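RNA of distal colon was sequenced for 3 Gm31629-/- and 3 WT mice. The authors deposited FPKM per gene with 1 column per mouse. Their processing notes name HISAT2 2.1.0, HTSeq 0.6.0, and GRCm38. Whether counting used strand is not given in the sources used here. Of 27546 identifiers, 27488 were matched to symbols and coordinates of GENCODE M21. The aquaporin genes and all lists were chosen with earlier results of these data known.

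limma 3.58.1 (R 4.3.3; lmFit, eBayes with trend) was fitted to log2(FPKM + 1) of 14657 genes averaging 0.5 FPKM or more over the 6 mice, which understates fold changes of low genes, and was tested on simulated data. Calls required a log2 fold change above 1 or below −1 and a p under 0.05 after Benjamini-Hochberg adjustment. Since FPKM values step by whole fragments, depth and fragments were recovered, with 96.3% to 97.2% of values of up to 20 fragments whole within 0.1. Fragments of Aqp4 were not whole and are approximate. Limma's voom on these fragments was added after the data were seen. Intervals of fragment ratios are exact (conditional binomial) and cover counting error only. Replicate numbers did not pair the mice. Named genes were the aquaporins, the 3 genes nearest to each tested one, and the 2 largest and 2 smallest changes of each pathway list. Other genes were named after their values were seen. Alternatives were another pseudocount, other filters and scalings, no trend, a replicate block, other thresholds, and leaving out each mouse. A marker list is not reported here.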

Additional observations from a re-analysis of the deposited data

How the results depend on the processing

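The fall of Aqp11 kept its direction and its call in all 9 settings that tested it (log2 fold change −2.66 to −1.11, adjusted p 0.00118 to 0.0105) and without each mouse (−1.77 to −1.45). At a mean FPKM of at least 5 it was not tested, so that 0 aquaporins were called lower by limma there. Aqp4 stayed uncalled (−1.11 to −0.06 over settings and −1.17 to −0.52 without each mouse), as did Aqp1 (−0.55 to −0.08 without each mouse). Scaled to epithelial markers, Aqp1 turned to 0.45 (limma adjusted p = 0.258), where the median of all tested genes was 0.78. Aqp8 depended on the setting. It passed on the TPM scale (1.03, limma adjusted p = 0.0412), scaled to epithelial markers (1.84, 0.00131), with voom (1.02, 0.0463), and with voom and no filter (1.02, 0.0446), but not by the median ratio (0.75, 0.149), with a pseudocount of 0.1 (1.02, 0.0506), with limma and no filter (1.02, 0.105), at a mean FPKM of at least 5 (1.02, 0.0588), or without a trend (1.02, 0.0537). Without each mouse it ranged from 0.70 to 1.42, and it passed without Gm31629-/- mouse 2. Accordingly 1 aquaporin was called higher where Aqp8 passed and at an unadjusted p under 0.05, except for 3 with voom and no filter (Aqp3, Aqp7, and Aqp8), and 0 to 1 without each mouse, with 1 called lower each time.

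With the replicate number as a block, Aqp8 passed (1.02, limma adjusted p = 0.0494), so 1 aquaporin was called higher, and no other aquaporin call changed. Same-numbered mice did not deviate together (r = 0.0358, −0.108, and 0.0141), only mouse 1 correlated best with its own number, and the block called 3357 genes.

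Over all genes 3384 were called, against 1449 at a mean FPKM of at least 5, 5653 scaled to epithelial markers, 6376 at any fold, 7281 with voom and no filter, and 2798 to 3572 without each mouse. The share called higher among called genes was 79.9%, 64.7% by the median ratio, 66.0% at a mean FPKM of at least 5, 66.5% at any fold, and 96.6% scaled to epithelial markers. Why these counts moved was not tested beyond the number of genes entering each fit. With 3 mice per group an exact test cannot go below p = 0.1.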
